A study of Mus musculus with 9 samples.

Results

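The 93 genes described here serve protein quality control: the molecular chaperones, which fold proteins, and the proteasome, which degrades them. They were chosen by symbol, with no intensity read: all genes with a single symbol in the array's probe annotation that start with Psma, Psmb, Psmc or Psmd and a number, with Hspa to Hspe, with Dnaj, with Cct and a number or with Pdia, together with Calr and Canx. The inducible proteasome subunits Psmb8, Psmb9 and Psmb10 were left out. The 93 genes are 93 of 8251 genes with a single symbol and are read by 127 of the 12422 probe sets that are not controls. The family was taken up with earlier results of these arrays known, so that counts and medians over it are descriptions.

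The study asked what stimulating the prostaglandin E2 receptor EP3 with an agonist does in mice with an asthma-like disease. Total RNA of C57BL6 mouse lung was read on 9 Affymetrix arrays, 3 for each group of the ovalbumin (OVA) model: saline challenge, OVA challenge, and OVA challenge with the EP3 agonist. OVA, a protein of egg white, is the allergen, and 24 h stands in the titles of the OVA and the agonist arrays. The sources used here name neither the agonist nor its dose, nor the age or sex of the mice, nor whether arrays of a group are separate mice, so p-values measure the spread between these samples, which may be technical.

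In the cytosol, Hsp70 proteins bind unfolded chains and are driven by DnaJ partners, while the ring-shaped CCT chaperonin folds actin and tubulin. In the endoplasmic reticulum (ER), where secreted proteins are made, the Hsp70 protein BiP, the lectins calnexin and calreticulin and the disulfide isomerases of the Pdia family do this work, and an overloaded ER induces their genes through the unfolded protein response. The 26S proteasome is a barrel, the 20S core, with a 19S cap that recognizes ubiquitin-tagged proteins, and heat or misfolded protein in the cytosol induces the Hsp70 and DnaJ genes through heat shock factor 1. Plasma cells and mucus-secreting goblet cells, both found in allergic airways, are rich in ER.

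Intensities were scaled so that all arrays share the same trimmed mean, and 44.7 on that scale, the 40th percentile of all values, served as the detection limit. Testing required values above it on 3 or more of 9 arrays. That left 7920 probe sets in all and 105 of the 127 of the family, for 84 of the 93 genes, and 95 of the 105 were above the limit on every array. No tested probe set of the family was above the limit in a single group alone. Calr, Dnajb5, Dnajc4, Dnajc11, Dnajc17, Hspa14, Hspb1, Psmc3ip and Psmd10 had no tested probe set. Calr, which encodes calreticulin, read −10.5, −17.8 and −16.9 in saline, 5.12, −2.78 and −4.73 in OVA and −21.5, −20.0 and −4.38 in agonist-treated lung, so its only probe set gave no usable signal in any group. All 8 markers of club and alveolar type 2 cells on the array, which are cells of the lung epithelium, were above the limit on 3 or more arrays.

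Agonist replicate 3 lay nearer to the OVA arrays than agonist replicates 1 and 2 in several marker lists. Summed over 11 mucus and goblet cell genes, the intensity was 1998, 2439 and 7456 on agonist replicates 1, 2 and 3, against 1394 to 1889 in saline and 7859 to 9543 in OVA lung. The medians, the counts and the main genes of the comparison of agonist with OVA are therefore also given without that array. Agonist replicate 2 read higher than the other agonist arrays in some heat shock genes and is named there.

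The medians of the roles differed in direction between OVA and saline arrays, each by a small amount. The median log2 change from saline to OVA was 0.48 for 11 ER chaperone genes, 0.22 for 14 genes of the 20S core, 0.10 for 19 genes of the 19S cap and −0.23 for 24 genes of cytosolic Hsp70 and its partners, each gene read by its brightest tested probe set. The cytosolic group takes in listed Hsp70 genes, Hspbp1 and every Dnaj gene not listed as ER or mitochondrial. It is therefore not limited to proteins known to act in the cytosol. Over all 7920 probe sets tested the median was −0.08. The median was 0.03 for 8 chaperonin genes, 0.05 for 5 mitochondrial chaperones and −0.19 for 3 small heat shock genes. Within replicate numbers 1, 2 and 3 the ER median was 0.50, 0.13 and 0.22, the 20S median 0.29, 0.24 and 0.21 and the cytosolic median −0.21, −0.26 and −0.13. The numbers are not taken as pairs, so these are differences between arbitrarily matched arrays, and their equal signs are no replication.

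Few single genes passed the test. Between OVA and saline, 5 of the 105 probe sets (4.76%) had an adjusted p under 0.05 in limma, 4 higher and 1 lower, where 9.49% of all probe sets tested did (5.08% higher and 4.42% lower). At an unadjusted p under 0.05 there were 31 of 105 (29.5%), against 29.1% of all. The 4 that rose were Pdia3, Pdia6, Psma5 and Dnajc9, and the 1 that fell was Cct2. The groups did not overlap, with OVA higher, for 9 of 17 ER probe sets (52.9%), 9 of 16 of the 20S core (56.2%), 4 of 23 of the 19S cap (17.4%) and 1 of 29 of the cytosolic group (3.45%), where 15.5% of all probe sets tested did so. OVA lay below saline without overlap for 9 of 29 cytosolic probe sets (31.0%), 1 of 17 ER, 1 of 16 20S and 0 of 23 19S probe sets, against 22.0% of all. The ER and 20S shares of higher probe sets were above, and the cytosolic share below, that of all probe sets. Several probe sets of a gene count separately in these shares. The 17 ER probe sets read 11 genes and the 16 of the 20S core 14 genes.

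With the agonist, the ER and 20S medians lay back at the saline level. From OVA to OVA with agonist the median log2 change was −0.37 for ER chaperones, −0.19 for the 20S core, −0.07 for the 19S cap and 0.06 for the cytosolic group, where all probe sets gave 0.06. Without agonist replicate 3 the 4 medians were −0.46, −0.21, −0.05 and 0.09. Within replicate numbers 1, 2 and 3, again arbitrarily matched arrays, the ER median was −0.63, −0.19 and −0.11 and the 20S median −0.33, −0.19 and −0.07. Between agonist and saline arrays the medians were 0.03, 0.05, 0.05 and −0.10. The first 2 comparisons share the OVA arrays, so a high OVA array raises the first difference and lowers the second.

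Of the 105 probe sets, 3 (2.86%) passed between agonist and OVA, where 2.75% of all did (1.25% higher and 1.5% lower). Cct2 rose, and Hspa1a and Dnajb1, a stress-inducible Hsp70 and its DnaJ partner, fell. Between agonist and saline 0 of 105 passed in limma, against 0.0758% of all, and 8 had an unadjusted p under 0.05 (7.62%, all lower), against 7.71% of all (4.09% lower). Agonist arrays lay below saline arrays without overlap for 10 of 105 (9.52%; 7.03% of all), 7 of them among the 29 cytosolic probe sets (24.1%), and above them for 3 (2.86%; 6.65% of all). Agonist arrays lay below OVA arrays without overlap for 7 of 16 20S (43.8%), 6 of 17 ER (35.3%), 8 of 29 cytosolic (27.6%) and 2 of 23 19S probe sets (8.7%), against 12.0% of all. Agonist arrays were above OVA arrays without overlap for 0 of the 20S, 19S and ER probe sets and for 3 of 29 cytosolic ones, against 17.8% of all. With agonist replicates 1 and 2 alone, where fewer arrays make overlap rarer, the lower shares were 62.5% (20S), 58.8% (ER), 27.6% (cytosolic) and 13.0% (19S), against 18.4% of all. The higher counts were then 1 each in the 20S, 19S and ER roles and 7 of 29 cytosolic (24.1%), against 27.2% of all, and above saline 9 of 105 (8.57%), against 12.1% of all.

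**Figure D1:**
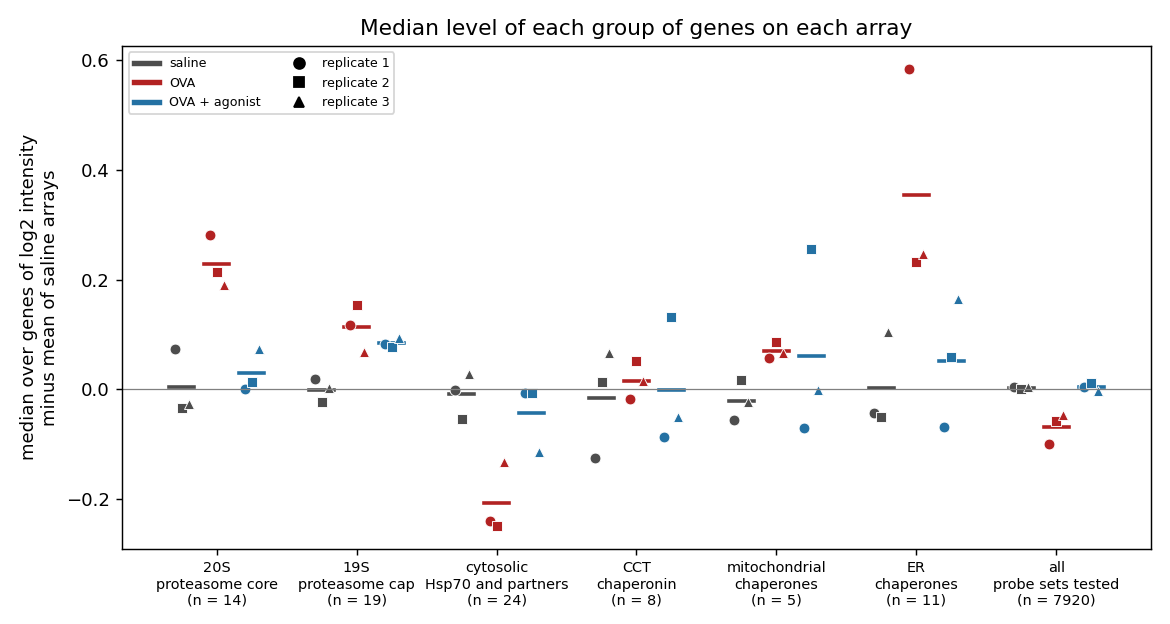
Median over the genes of each role of the log2 intensity minus the mean of the saline arrays (vertical axis), for each array; colours give the group, symbols the replicate number and the line the mean of 3 arrays. The ER chaperones lie at 0.58, 0.23 and 0.25 on the OVA arrays and the cytosolic group at −0.24, −0.25 and −0.13, while the agonist arrays lie between −0.12 and 0.16 for both.

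**Figure D2:**
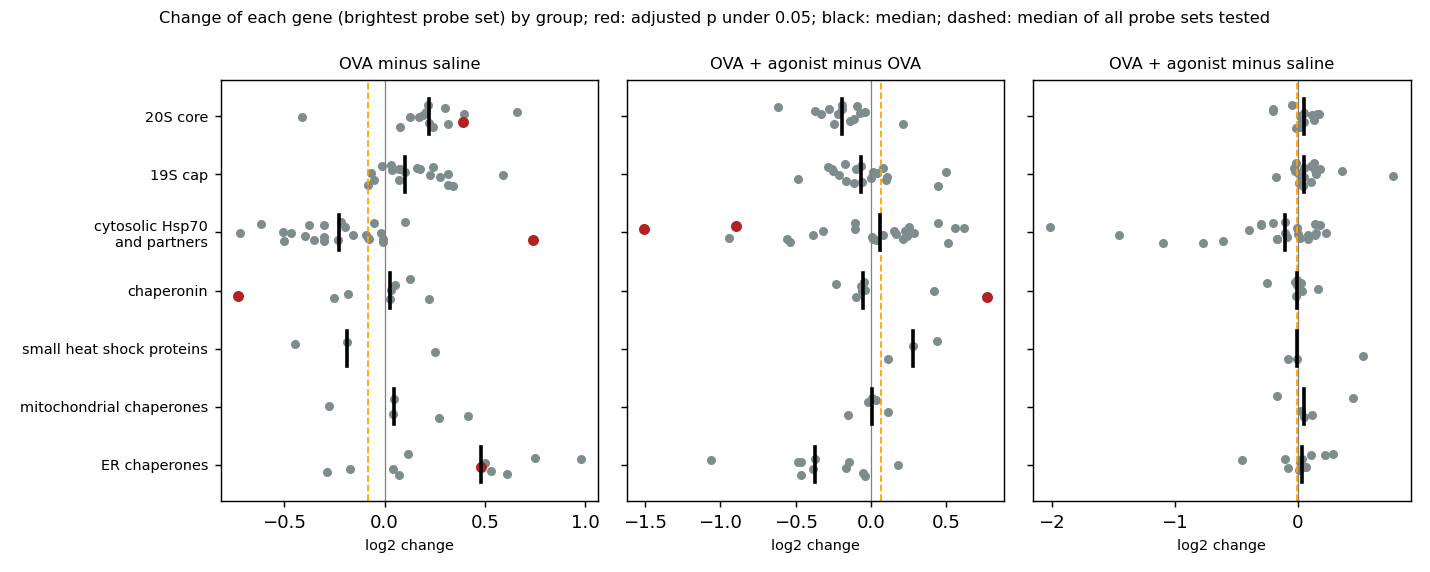
Log2 change of each of the 84 genes (points, brightest tested probe set) by role for the 3 comparisons; red points have an adjusted p under 0.05, black lines are the role medians and the dashed line is the median of all 7920 probe sets tested. In the left panel 22 of 24 cytosolic genes lie below 0 and 13 of 14 genes of the 20S core above it; in the middle and right panels the points farthest to the left are Hspa1a.

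Of 11 tested ER chaperone genes 9 had a log2 change above 0 from saline to OVA, where 3171 of all 7920 probe sets did. The disulfide isomerases Pdia3 and Pdia6, 2 of the 11, rose past the threshold, against 5.08% of all probe sets. The upstream sequences of 4 ER chaperone genes are shown because they carry the ER stress response element, CCAAT and CCACG with 9 bases between. It is the site through which the unfolded protein response acts on ER chaperone genes. Each sequence is the 250 bases before the gene's start in RefSeq (GRCm38.p6), read 5′ to 3′ on the gene's strand, with the element in capitals. Hspa5 lies at chr2:34771840-34772089 (plus strand), Pdia6 at chr12:17266339-17266588 (plus), Dnajc3 at chr14:118937682-118937931 (plus) and Canx at chr11:50325674-50325923 (minus), and the element starts at base 186, 153, 146 and 106 of the stretch.
Hspa5: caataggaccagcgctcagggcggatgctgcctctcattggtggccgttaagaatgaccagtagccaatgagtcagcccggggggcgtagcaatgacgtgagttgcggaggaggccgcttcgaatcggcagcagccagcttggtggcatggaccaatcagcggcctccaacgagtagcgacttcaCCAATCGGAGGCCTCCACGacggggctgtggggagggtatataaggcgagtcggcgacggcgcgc
Pdia6: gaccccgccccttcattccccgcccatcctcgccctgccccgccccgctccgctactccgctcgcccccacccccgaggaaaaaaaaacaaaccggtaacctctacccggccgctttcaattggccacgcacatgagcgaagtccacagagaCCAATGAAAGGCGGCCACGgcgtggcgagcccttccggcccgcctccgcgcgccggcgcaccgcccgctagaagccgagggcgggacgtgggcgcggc
Dnajc3: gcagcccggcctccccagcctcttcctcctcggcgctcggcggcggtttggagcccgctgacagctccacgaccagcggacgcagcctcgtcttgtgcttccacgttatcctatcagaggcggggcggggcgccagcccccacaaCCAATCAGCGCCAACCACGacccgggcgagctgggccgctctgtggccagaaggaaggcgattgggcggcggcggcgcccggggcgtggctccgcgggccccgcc
Canx: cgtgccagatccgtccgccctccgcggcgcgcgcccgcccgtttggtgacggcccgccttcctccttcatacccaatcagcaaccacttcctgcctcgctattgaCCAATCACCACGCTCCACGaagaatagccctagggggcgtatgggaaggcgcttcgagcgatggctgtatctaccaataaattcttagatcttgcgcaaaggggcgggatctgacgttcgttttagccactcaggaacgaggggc

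The element was searched on both strands in windows from 250 bases before to 50 after each start, which were found for 80 of the 93 genes. It was in the windows of 5 of 12 ER chaperone genes (41.7%), Hspa5, Pdia6, Dnajc3, Canx and Calr, and in 0 windows of the other roles. Among all 32851 windows 39 held it (0.119%). A match is a description of the letters, and Pdia3 and Pdia4 had none in their windows.

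Hspa5 encodes BiP, the Hsp70 protein of the ER and the classic target of the unfolded protein response. Its intensity was 1335, 1280.0 and 1526 on the saline arrays, 2083, 2176 and 1632 on the OVA arrays and 1169.6, 1504 and 1542 on the agonist arrays. All OVA arrays were above all saline arrays, and the lowest OVA array, replicate 3, was above every agonist array as well. The log2 change was 0.50 ± 0.16 (SE) from saline to OVA (limma adjusted p = 0.0832) and −0.48 ± 0.16 (SE) from OVA to agonist (adjusted p = 0.119; −0.55 and 0.108 without agonist replicate 3), neither past the threshold.

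Pdia3, a disulfide isomerase that works on glycoproteins with calnexin and calreticulin, read 604, 512 and 596 on the saline arrays, 854, 716 and 822 on the OVA arrays and 553, 607 and 687 on the agonist arrays. The OVA arrays overlapped with neither other group. It rose 1.4-fold from 571 ± 51.0 in saline to 797 ± 72.1 in OVA lung (mean ± SD, n = 3; log2 change 0.48 ± 0.12 (SE); limma adjusted p = 0.0486). In agonist-treated lung it averaged 616 ± 67.6, a log2 change of −0.37 from OVA (adjusted p = 0.119; −0.46 and 0.0786 without agonist replicate 3). The call was kept in 1 of 9 fits with an array left out, the one without agonist replicate 3, with adjusted p between 0.0421 and 0.152, and was lost under quantile normalization (0.0527).

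Pdia6, a disulfide isomerase, which also binds BiP, rose 1.48-fold from 280.1 ± 15.3 to 416 ± 56.6 (log2 change 0.56 ± 0.14 (SE); limma adjusted p = 0.048). On the single arrays it read 294, 264 and 282 on the saline arrays, 467, 425 and 355 on the OVA arrays and 259, 329.8 and 335 on the agonist arrays. OVA replicate 3 was the lowest of its group, and the agonist arrays all lay below it. Between OVA and agonist the log2 change was −0.43 (limma adjusted p = 0.119; −0.50 and 0.108 without agonist replicate 3). From saline to OVA its other probe sets gave log2 changes of 0.59 and 0.61 with adjusted p of 0.0856 and 0.0872. The call was kept in 2 of 9 fits with an array left out, those without OVA replicate 3 and agonist replicate 1, with adjusted p between 0.0396 and 0.148.

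Pdia4 had the largest log2 change of the tested ER genes, 0.98 ± 0.29 (SE), with an adjusted p of 0.0732. This isomerase read 122, 126 and 145 on the saline arrays, 356, 274 and 175 on the OVA arrays and 91.2, 127 and 162 on the agonist arrays. OVA replicate 3 lay near the highest agonist array, and the other OVA arrays well above it. From OVA to agonist its log2 change was −1.06 ± 0.29 (SE) (limma adjusted p = 0.0838; −1.26 and 0.0575 without agonist replicate 3). Pdia5, a related isomerase, averaged 72.6 ± 32.6 in saline, 117 ± 33.6 in OVA and 83.2 ± 18.5 in agonist-treated lung, with overlapping groups (log2 change 0.75 from saline to OVA; limma adjusted p = 0.229).

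BiP's DnaJ partners in the ER lumen divided. Dnajb11, which hands unfolded chains to BiP, read 111, 102 and 115 on the saline arrays, 176, 164 and 137 on the OVA arrays and 91.0, 119 and 139 on the agonist arrays, a log2 change of 0.53 from saline to OVA (limma adjusted p = 0.0832). Dnajc3, known as p58IPK, an inhibitor of the ER stress kinase PERK that also helps BiP, read 124, 115 and 129 on the saline arrays, 202, 147 and 168 on the OVA arrays and 110.0, 148 and 113 on the agonist arrays. That probe set had a log2 change of 0.49 from saline to OVA, another 0.50 (limma adjusted p = 0.0889 and 0.0729) and the brightest 0.11 (adjusted p = 0.609), so the probe sets of this gene disagreed in size. Dnajb9, another target of the unfolded protein response, had a log2 change of 0.04, and Dnajc10 and Dnajc1 had log2 changes of 0.07 and −0.17.

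Canx, the membrane-bound lectin calnexin, carries the element too, and its brighter probe set had a log2 change below 0. It read 438, 439 and 511 on the saline arrays, 369.7, 372 and 392 on the OVA arrays and 312, 342 and 356 on the agonist arrays, with all saline arrays above all OVA arrays and all OVA arrays above all agonist arrays. The log2 change was −0.29 for OVA against saline (limma adjusted p = 0.0958) and −0.46 for agonist against saline (adjusted p = 0.312). Its dimmer probe set gave 0.07 and 0.11, so the direction for this gene is not settled by the array.

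**Figure D3:**
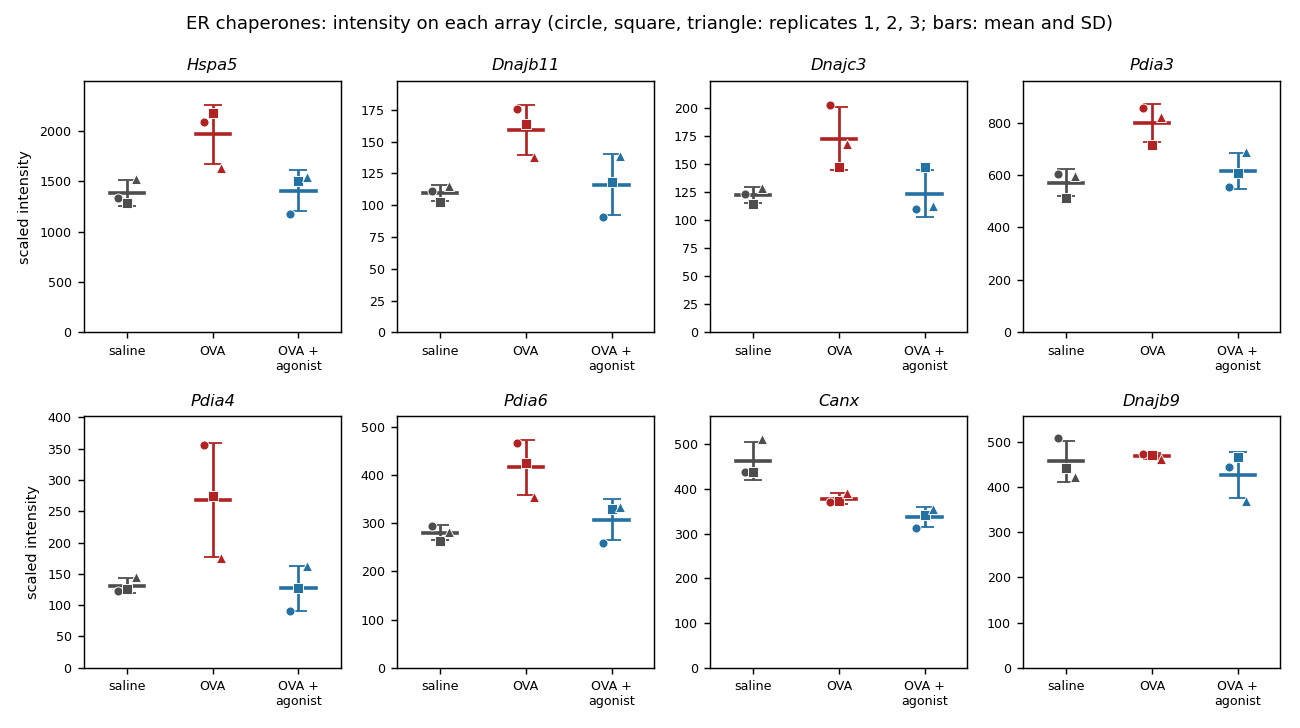
Scaled intensity (vertical axis, from 0, arbitrary units) of 8 ER chaperone genes in saline, OVA and OVA plus agonist lung; symbols are single arrays and bars the mean and SD of 3 arrays. Hspa5, Dnajb11, Pdia3, Pdia4, Pdia6 and the plotted, dimmer probe set of Dnajc3 have all OVA arrays above all saline arrays, while the brighter Canx probe set steps down and Dnajb9 stays level.

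Each read by its brightest tested probe set, 35 other genes of ER folding, transport and stress were tested. From saline to OVA 7 rose in limma and 0 fell, against 5.08% and 4.42% of all probe sets tested. The median log2 change of the 35 was 0.27. Those that rose included Hsp90b1, the Hsp90 protein of the ER, by 0.51 (adjusted p = 0.0417), Sec61b, a subunit of the channel through which chains enter the ER, by 0.73 (adjusted p = 0.0261), Serp1 by 0.50 (adjusted p = 0.0291) and Edem1, which sorts misfolded glycoproteins for destruction, by 1.30 (adjusted p = 0.0377). Erp44, Spcs2 and Agr2, an ER isomerase of goblet cells, were the other genes of the 7. The dimmer of 2 probe sets of Sec61a1, the pore of that channel, passed as well (log2 change 0.61; limma adjusted p = 0.0326; the call was kept in 4 of 9 fits with an array left out), while the brighter did not (0.54; 0.0558). Each of the 7 lost its call in at least 3 of 9 fits with an array left out, and Erp44 in all 9, with adjusted p up to 0.133.

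The transcription factors of the stress response did not pass. Xbp1, the factor of plasma cells and of the unfolded protein response, had a log2 change of 0.27 (limma adjusted p = 0.306), Atf4 −0.10 (0.462) and Ddit3, known as CHOP, 0.45 (0.48). From OVA to agonist 1 of the 35 fell by its brightest probe set (1.5% of all probe sets), 0 rose (1.25% of all) and the median was −0.18. The dimmer probe set of Sec61a1 fell too (log2 change −0.69; limma adjusted p = 0.0444; kept in 1 of 9 fits with an array left out), and the brighter did not pass (−0.59; 0.0692). The gene of the count was Manf, a secreted ER stress protein, which read 416, 319 and 525 on the saline arrays, 793, 700.1 and 562 on the OVA arrays and 245, 280.4 and 304 on the agonist arrays. Its agonist arrays lay below both other groups, and it fell 2.46-fold from OVA (log2 change −1.30 ± 0.21 (SE); limma adjusted p = 0.0363; 4 of 9 fits with an array left out kept the call, adjusted p up to 0.125).

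Summed markers of ER-rich cells were also higher in OVA lung, although most B and plasma cell genes did not pass singly. Summed over 13 B and plasma cell genes, the intensity was 4001, 4231 and 3305 on the saline arrays, 13050, 11600 and 6481 on the OVA arrays and 2966, 4123 and 8587 on the agonist arrays. Of the 12 genes tested, 3 rose with OVA in limma (5 at an unadjusted p under 0.05), with a median log2 change of 0.27. Cd22 was the one of 13 not above detection on any array. Jchain, the joining chain that plasma cells secrete with antibody, read 172, 149.9 and 159 on the saline arrays, 1833, 1342 and 1084 on the OVA arrays and 127, 173 and 771 on the agonist arrays. OVA replicate 3 had the lowest of the OVA sums and the lowest Hspa5, Pdia4, Pdia6 and Dnajb11, while Pdia3 and the Dnajc3 probe set given above were lowest on OVA replicate 2 and the goblet cell sum on OVA replicate 1.

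Of 6 tested goblet cell genes 4 rose with OVA in limma and 1 was lower at an unadjusted p under 0.05. On the array 4 of the 11 (Clca3a1, Foxa3, Spdef and Tff3) were below detection throughout. Summed over 21 macrophage and dendritic cell genes the intensity was 15800 to 17460 in saline, 23600 to 25170 in OVA and 17570 to 22270 in agonist-treated lung, with 12 of 18 tested genes higher and 1 lower in OVA lung. The part of these cells in the ER result was not tested, and in whole lung more cells of a type and more RNA per cell cannot be told apart. Among markers of other cells, 9 of 16 tested endothelial genes, 5 of 13 of heart muscle, 2 of 8 of club and alveolar type 2 cells and 2 of 4 of red blood cells were lower in OVA lung, and 0 of these rose. Of 10 smooth muscle genes 4 rose and 0 fell, and of 6 ciliated cell genes 0 passed in limma (1 lower at an unadjusted p under 0.05). Beside these marker counts, 5.08% of all probe sets tested rose and 4.42% fell with OVA.

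Of the 14 genes of the 20S core, 13 had a log2 change above 0 from saline to OVA by their brightest probe set, and 1 rose past the threshold. Of all 7920 probe sets, 3171 were above 0 and 5.08% rose past the threshold. The count of 13 takes Psmb5 as above and Psmb1 as below 0, although the probe sets of each disagree, and the other 12 genes were all above 0. Psma5, an outer-ring alpha subunit, read 316, 293 and 293 on the saline arrays, 425, 377 and 384 on the OVA arrays and 299.7, 298 and 316 on the agonist arrays. The OVA arrays stood above both other groups, whose ranges overlapped. It rose 1.31-fold from 301 ± 12.9 to 395 ± 25.6 (log2 change 0.39 ± 0.08 (SE); limma adjusted p = 0.0311). With the agonist it averaged 305 ± 10.2 (log2 change −0.37 from OVA; adjusted p = 0.0567; −0.40 and 0.0554 without agonist replicate 3). The call was kept in 2 of 9 fits with an array left out, those without agonist replicates 1 and 3, with adjusted p between 0.0336 and 0.102.

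Psmb6, the beta subunit that cuts after acidic residues and is replaced by Psmb9 in the immunoproteasome, had the largest log2 change of the core. It read 248, 194 and 147 on the saline arrays, 353, 278 and 284 on the OVA arrays and 181, 229.8 and 185 on the agonist arrays, and its log2 change was 0.66 ± 0.21 (SE) (limma adjusted p = 0.0819). Against OVA the agonist arrays gave −0.62 (adjusted p = 0.124; −0.57 and 0.198 without agonist replicate 3). The ring subunits Psma2 and Psma4 had log2 changes of 0.30 and 0.32 (adjusted p = 0.104 and 0.112). Psma1, Psma6 and Psmb4 also had no overlap between OVA and saline, with log2 changes of 0.22, 0.21 and 0.24, and Psma3, Psma7, Psmb2, Psmb3 and Psmb7 overlapped.

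The probe sets of 2 catalytic-ring genes disagreed. Psmb5, the subunit that cuts after hydrophobic residues and the target of the drug bortezomib, read 413, 380.3 and 337 on the saline arrays, 551, 446 and 494 on the OVA arrays and 377, 398 and 454 on the agonist arrays with 1 probe set. Its other probe set read 252, 311 and 333 on the saline arrays, 149.8, 230.1 and 218 on the OVA arrays and 236, 278 and 224 on the agonist arrays. Their log2 changes were 0.40 and −0.60, in opposite directions and each without overlap between OVA and saline (limma adjusted p = 0.0833 and 0.0865). For Psmb1 they were 0.27 with the dimmer and −0.41 with the brighter probe set (adjusted p = 0.0874 and 0.202). Nothing in the values says which probe set follows the gene, so no direction is given for either.

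Of the 3 inducible counterparts of the catalytic subunits, 2 rose in OVA lung. Psmb8, which replaces Psmb5 in the immunoproteasome, read 562, 624 and 574 on the saline arrays, 976, 892 and 928 on the OVA arrays and 621, 593 and 714 on the agonist arrays, a rise of 0.67 ± 0.10 (SE) on the log2 scale (limma adjusted p = 0.0133) and a fall from OVA to agonist (log2 change −0.54; adjusted p = 0.0421; 0.0175 to 0.139 with an array left out). Psmb9 rose by 1.58 ± 0.35 (SE) (adjusted p = 0.0348), and Psmb10, which replaces Psmb7, had a log2 change of 0.59 (adjusted p = 0.0899). Of the 20 tested helper, immunoproteasome and ubiquitin genes these 2 rose and 0 fell with OVA, with a median of 0.08, and Psmb8 alone fell with the agonist, with a median of −0.24. Of all probe sets tested 5.08% rose and 4.42% fell with OVA, and 1.5% fell with the agonist. The calls of Psmb8 and Psmb9 for OVA were kept in 6 and 3 of 9 fits with an array left out. The call of Psmb8 between agonist and OVA was kept in 1 of 9, the fit without agonist replicate 3.

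The 19S cap had a smaller median. Of its 19 tested genes 15 had a log2 change above 0 from saline to OVA (3171 of all 7920 probe sets), with a median of 0.10. In limma 0 of its 23 probe sets passed (9.49% of all) and 3 had an unadjusted p under 0.05 (13.0%, against 29.1% of all). The largest among those well above detection were Psmd8, at 0.34 (adjusted p = 0.0601), Psmd14, the enzyme that removes ubiquitin at the cap, at 0.32 (0.0635), and Psmd12 at 0.32 (0.119). Psmd8 read 307, 294 and 334 on the saline arrays, 407, 390.0 and 384 on the OVA arrays and 305, 311 and 354 on the agonist arrays, so that all OVA arrays were highest. Psmc6, the brightest cap ATPase, was level at 1194, 1119 and 1078 on the saline arrays, 1151, 1199 and 1129 on the OVA arrays and 1155, 1195 and 1161 on the agonist arrays. Psmd1, Psmd2 and the dimmest probe set of Psmd11 had some arrays under the detection limit and wide errors, with log2 changes of 0.59 ± 1.06 (SE), 0.28 ± 0.61 (SE) and −1.64 ± 1.32 (SE). The other 2 probe sets of Psmd11, a scaffold subunit, gave 0.10 and −0.07. Psmc5 was high on agonist replicate 1 alone, at 522, 320.0 and 329.5 on the 3 agonist arrays. Psmc3ip, which the symbol rule brings in, is a recombination factor and no proteasome subunit.

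**Figure D4:**
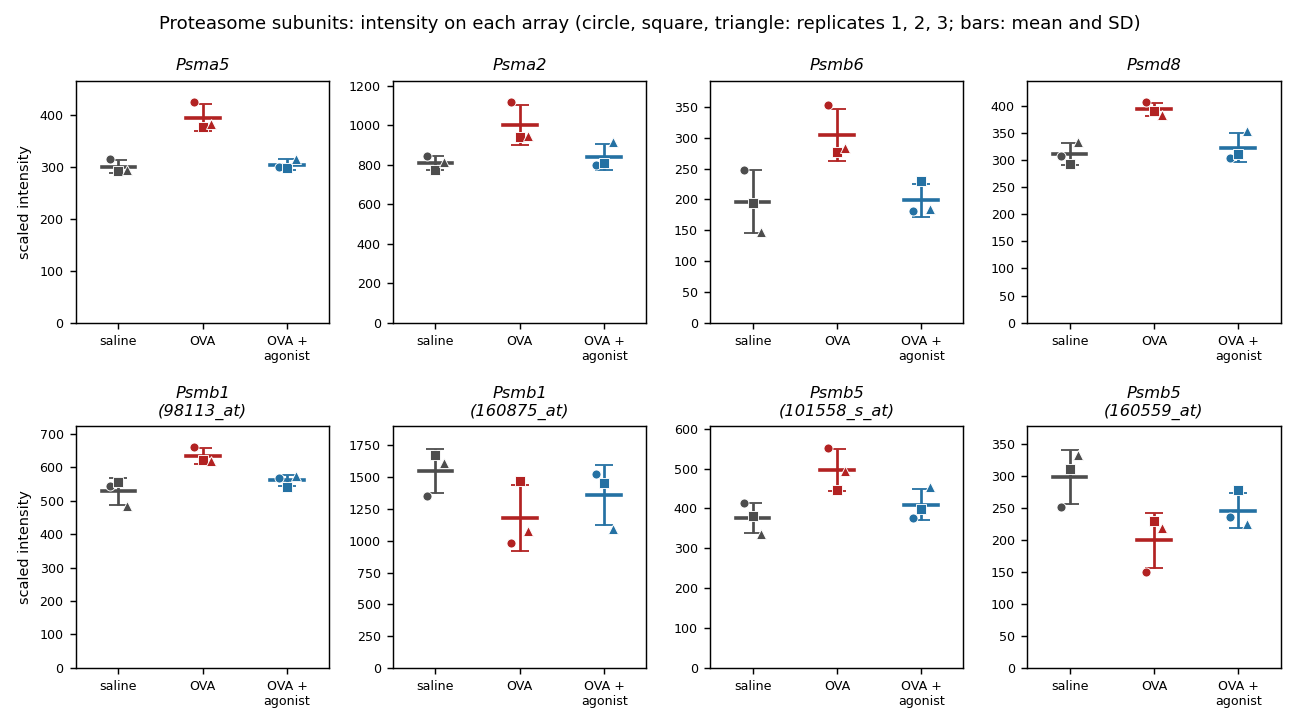
Scaled intensity (vertical axis, from 0, arbitrary units) of 6 proteasome genes, with both probe sets of Psmb1 and Psmb5; symbols are single arrays and bars the mean and SD of 3 arrays. Psma5, Psma2, Psmb6 and Psmd8 have all OVA arrays above all saline arrays, and the probe sets of Psmb1 and of Psmb5 point in opposite directions.

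Of 24 tested genes of cytosolic Hsp70 and its partners, 22 had a log2 change below 0 from saline to OVA, where 4749 of all 7920 probe sets did. In limma 0 of their 29 probe sets fell past the threshold, where 4.42% of all did. At an unadjusted p under 0.05 there were 5 of 29 (17.2%, 4 of them lower), against 29.1% of all. All 3 agonist arrays lay below all 6 other arrays for 5 of 29 cytosolic probe sets (17.2%), Hspa1a, Dnajb1, Dnajb4, Dnaja1 and Hspa8, against 1.45% of all. With agonist replicates 1 and 2 alone it was 6 of 29 (20.7%), against 3.71% of all. Canx was the one other probe set of the family with this pattern (6 of 105, 5.71%), and 0 of 105 had all agonist arrays highest (1.78% of all). These genes are the strongly stress-inducible Hsp70, the constitutive Hsp70 and DnaJ proteins of the cytosol.

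Hspa1a and Dnaja1 are shown with the 250 bases before a start (RefSeq, GRCm38.p6, 5′ to 3′), because both stretches hold GAANNTTC. These letters are an inverted repeat of the heat shock element, to which heat shock factor 1 binds. The stretch of Hspa1a is at chr17:34972157-34972406 (minus strand) and that of Dnaja1 at chr4:40722218-40722467 (plus), with the motif in capitals at bases 147 and 127. The windows of the other starts of Dnaja1 did not hold the motif.
Hspa1a: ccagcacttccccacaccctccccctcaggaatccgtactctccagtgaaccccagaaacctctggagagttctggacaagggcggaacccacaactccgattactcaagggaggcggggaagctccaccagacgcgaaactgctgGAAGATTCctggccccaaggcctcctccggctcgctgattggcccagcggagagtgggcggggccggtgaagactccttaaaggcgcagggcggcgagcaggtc
Dnaja1: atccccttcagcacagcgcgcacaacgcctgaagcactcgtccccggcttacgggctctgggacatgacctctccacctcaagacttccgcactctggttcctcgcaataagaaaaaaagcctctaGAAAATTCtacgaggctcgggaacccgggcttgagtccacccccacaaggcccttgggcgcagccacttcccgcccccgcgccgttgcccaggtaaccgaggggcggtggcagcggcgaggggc

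A gene with several starts was counted when any of its windows held the motif. This short motif reads the same on both strands. It was in the windows of 4 of 24 cytosolic genes (16.7%), Hspa1a, Hspa1b, Dnaja1 and Dnajb6, and of 9.04% of all genes. It was also in windows of 2 of 3 small heat shock genes (66.7%), 2 of 5 mitochondrial chaperones (Hspd1 and Hspe1, whose windows share the match), 1 of 7 chaperonin genes (14.3%), 1 of 11 genes of the 20S core (9.09%), 0 of 18 of the 19S cap and 0 of 12 ER chaperone genes. The windows of Dnajb1 and Dnajb4, both among the genes lowest with the agonist, did not hold these letters, and Hspa8 was not matched. Hspa1a and Hspa1b have nearly the same promoter, with 4 of 300 bases different between their windows, and nearly identical transcripts, so their probe sets may read either gene. TGACNNNGC, the antioxidant response element bound by NRF1 and NRF2 at proteasome genes, was searched on both strands as well. It was in windows of 2 of 11 genes of the 20S core (18.2%) and 3 of 18 of the 19S cap (16.7%), against 14.0% of all genes.

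Hspa1a, the stress-inducible Hsp70, read 313, 394 and 597 on the saline arrays, 268, 277 and 348 on the OVA arrays and 99.9, 145 and 77.5 on the agonist arrays. The agonist arrays were all below the lowest array of the other groups, and saline and OVA overlapped. It fell 2.84-fold from 298 ± 43.9 in OVA to 108 ± 34.5 in agonist-treated lung (log2 change −1.51 ± 0.29 (SE); limma adjusted p = 0.0455). Without agonist replicate 3 the values were −1.29 and 0.0539. Against saline lung, at 434 ± 146, the log2 change was −2.01 ± 0.29 (SE) with an adjusted p of 0.129 over all probe sets. The call against OVA was lost in all 9 fits with an array left out (log2 change −1.75 to −1.29, adjusted p 0.0539 to 0.139).

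Hspa1b, its near-copy, read 436, 576 and 779.6 on the saline arrays, 376, 416 and 435 on the OVA arrays and 146, 459 and 142 on the agonist arrays. Agonist replicates 1 and 3 were low and replicate 2 was not, unlike for Hspa1a. The log2 change was −0.95 ± 0.45 (SE) from OVA (limma adjusted p = 0.242; −0.66 and 0.427 without agonist replicate 3) and −1.45 from saline (0.475). With an array left out, the adjusted p against saline was 0.0437 without agonist replicate 2 (log2 change −2.01) and 0.581 to 0.803 in all other fits.

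Dnajb1, the DnaJ partner induced together with Hspa1a, read 234, 228 and 312 on the saline arrays, 215, 219 and 234 on the OVA arrays and 146, 109.7 and 106 on the agonist arrays. Its agonist arrays did not overlap with either group. It fell 1.86-fold from 223 ± 10.1 in OVA to 121 ± 22.3 in agonist-treated lung (log2 change −0.90 ± 0.17 (SE); limma adjusted p = 0.0436), and its change from saline was −1.10 (adjusted p = 0.139). The call was kept in 1 of 9 fits with an array left out, the one without agonist replicate 3 (log2 change −0.81; adjusted p up to 0.138 in the others).

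Dnajb4, a close relative of Dnajb1, read 111, 89.7 and 118 on the saline arrays, 83.9, 94.0 and 91.1 on the OVA arrays and 63.8, 58.4 and 63.0 on the agonist arrays. The agonist arrays were tight and below all others, with a log2 change of −0.54 ± 0.12 (SE) from OVA (limma adjusted p = 0.0558; −0.55 and 0.0646 without agonist replicate 3). From saline the log2 change was −0.77 (limma adjusted p = 0.139). With an array left out, the adjusted p against saline was 0.0487 without saline replicate 2 (log2 change −0.89) and 0.162 to 0.372 in all other fits. Dnaja1, the main farnesylated DnaJ of the cytosol, read 767, 683 and 863 on the saline arrays, 617, 633 and 733 on the OVA arrays and 463, 525 and 527 on the agonist arrays and had a log2 change of −0.39 from OVA (adjusted p = 0.107; −0.42 and 0.121 without agonist replicate 3). Hspa8, the constitutive Hsp70 and the brightest gene of the group, read 2098, 2118 and 2139 on the saline arrays, 1977, 1876 and 2184 on the OVA arrays and 1706, 1863 and 1318 on the agonist arrays. Its change from OVA was −0.32 (adjusted p = 0.202), with agonist replicate 3 the lowest, and −0.17 without that array (adjusted p 0.333).

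Most other cytosolic genes had a log2 change below 0 from saline to OVA, as did 4749 of all 7920 probe sets, without passing the test. Hspa4l, an Hsp110-type exchange factor, read 214, 197 and 180.2 on the saline arrays, 127, 139 and 163 on the OVA arrays and 190.4, 267 and 202 on the agonist arrays. Its log2 changes were −0.47 from saline to OVA and 0.61 from OVA to agonist (limma adjusted p = 0.0991 and 0.0748; 0.67 and 0.0774 for the second without agonist replicate 3). Dnajb3, a testis DnaJ, had log2 changes of −0.72 (0.0632) and 0.56 (0.15). Hspa1l overlapped between groups at −0.62 for OVA against saline. Hspbp1, which releases nucleotide from Hsp70, and Dnajb2 had −0.40 and −0.35 (adjusted p = 0.216 and 0.245). Dnaja2, Dnajb8, Dnajc21 and the brighter probe set of Dnajc8 were also lower in OVA than in saline lung without overlap, at −0.30, −0.30, −0.30 and −0.16. Hspa4, Dnajb6 and Dnajc13 lay close to 0, at −0.01, −0.02 and −0.01. Dnajb13, Dnajc2, Dnajc5, Dnajc7 and Hspa2 overlapped between saline and OVA, at −0.08, −0.09, −0.38, 0.10 and −0.05.

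Dnajc9 was the cytosolic entry that rose with OVA. It is a histone co-chaperone of dividing cells, and it carries the J domain that names the family. It read 145, 137 and 119 on the saline arrays, 277, 196 and 201 on the OVA arrays and 141, 134 and 183 on the agonist arrays, with the OVA arrays above both other groups. It rose 1.67-fold from 133 ± 13.2 to 225 ± 45.6 (log2 change 0.74 ± 0.18 (SE); limma adjusted p = 0.0427) and had a log2 change of −0.56 with the agonist (adjusted p = 0.115; −0.69 and 0.0662 without agonist replicate 3). The call was kept in 1 of 9 fits with an array left out, the one without agonist replicate 3 (adjusted p 0.0329 to 0.125). Of 17 tested cell cycle genes 6 rose with OVA (5.08% of all probe sets) and 3 fell from OVA to agonist (1.5% of all). The summed intensity of the cell cycle list was 2274, 2107 and 1920 in saline, 3499, 3035 and 2750 in OVA and 1860, 2170 and 2527 in agonist-treated lung. OVA replicate 1 was highest for both Dnajc9 and these sums, and their part in the change of Dnajc9 was not tested.

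**Figure D5:**
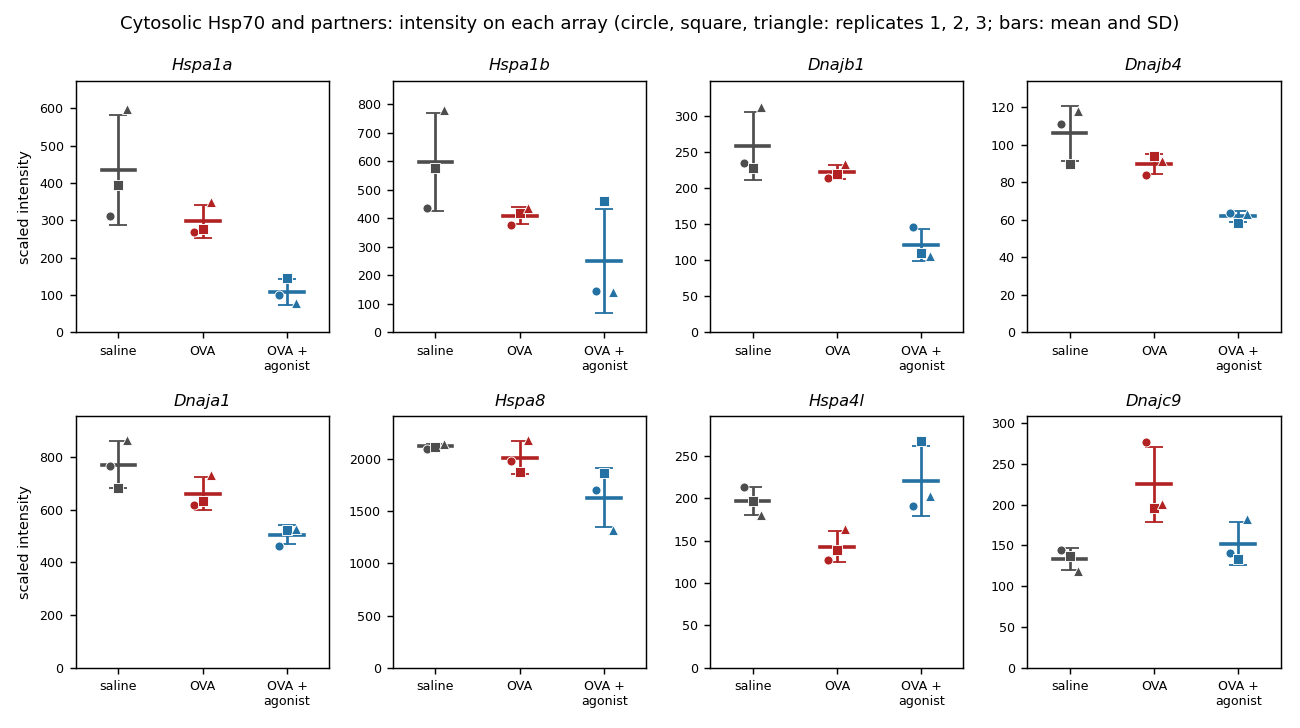
Scaled intensity (vertical axis, from 0, arbitrary units) of 8 genes of the cytosolic group; symbols are single arrays and bars the mean and SD of 3 arrays. Hspa1a, Dnajb1, Dnajb4, Dnaja1 and Hspa8 have all agonist arrays below the 6 others, Hspa1b has agonist replicate 2 at 459, and Dnajc9 is highest in OVA lung.

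Of 17 other tested heat shock partners 0 passed in limma from saline to OVA or from OVA to agonist, against 9.49% and 2.75% of all probe sets. At an unadjusted p under 0.05, 1 of the 17 was higher and 1 lower from saline to OVA, against 29.1% of all in either direction. From OVA to agonist 2 were higher and 0 lower at that p, for which no share of all probe sets is given. The medians of the 2 comparisons were −0.09 and −0.02. Agonist replicate 2 was the highest of its group for several. Hsp90aa1, the inducible Hsp90, read 1781, 2715 and 2062 on agonist replicates 1, 2 and 3, Hsph1, the main Hsp110, 344, 712 and 365, and Stip1, the adaptor between Hsp70 and Hsp90, 117, 349.9 and 187. In saline lung the same genes read 1838, 2039.8 and 2157, 488, 603 and 761 and 259, 249.8 and 307. Fkbp5, which is known for its induction by glucocorticoids, read 649, 62.8 and 81.5 on the agonist arrays and 91.6, 90.8 and 193 on the saline arrays, with agonist replicate 1 far above all others. Immediate early and stress genes, which rise with handling and dissection, gave summed intensities of 10110 to 11360 in saline, 8958 to 10340 in OVA and 9315 to 11270 in agonist-treated lung. Of those 16 genes 1 fell with OVA (4.42% of all probe sets) and 0 passed between agonist and OVA (2.75% of all).

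Of the 8 CCT chaperonin genes 1 passed the test, by 1 of 11 probe sets between OVA and saline (9.09%, against 9.49% of all). Cct2, a ring subunit of the complex, read 77.7, 81.4 and 105 on the saline arrays, 57.4, 52.3 and 48.0 on the OVA arrays and 91.7, 94.3 and 82.6 on the agonist arrays. All OVA arrays were below all arrays of both other groups. It fell 1.66-fold from 87.9 ± 14.6 in saline to 52.6 ± 4.70 in OVA lung (log2 change −0.73 ± 0.14 (SE); limma adjusted p = 0.0238). With the agonist it rose 1.71-fold to 89.5 ± 6.12 (log2 change 0.77 ± 0.14 (SE); adjusted p = 0.0408). The first call was kept in 4 of 9 fits with an array left out, with adjusted p up to 0.0717, and was lost when saline replicate 1, 2 or 3 or OVA replicate 1 or 2 was left out. The second was kept in 2, those without saline replicate 3 and agonist replicate 3, with adjusted p up to 0.125 (log2 change 0.83 and adjusted p 0.0315 without agonist replicate 3).

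The other 7 chaperonin genes, by their brightest probe sets, had log2 changes between −0.25 (Cct6b) and 0.22 (Cct5) from saline to OVA. Cct5 read 556, 528 and 533 on the saline arrays, 667, 621 and 602 on the OVA arrays and 504, 598 and 509 on the agonist arrays (limma adjusted p = 0.165). Cct4, the brightest, read 527, 643 and 609 on the saline arrays, 567, 655 and 589 on the OVA arrays and 572, 518 and 679.8 on the agonist arrays, with overlapping groups. The 3 probe sets of Cct3 gave 0.13, 0.14 and −0.24. Cct2 was read by a single probe set, whose OVA arrays lay just above the detection limit.

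Mitochondrial chaperones and small heat shock genes had 0 of 6 and 0 of 3 probe sets past the threshold between OVA and saline (9.49% of all). At an unadjusted p under 0.05 there were 0 and 1 (29.1% of all). Hspd1 and Hspe1, the Hsp60 and Hsp10 of the mitochondrial matrix, had log2 changes of 0.04 (brighter probe set; −0.31 with the dimmer) and 0.27 (limma adjusted p = 0.84 and 0.245), and Hspa9, the mitochondrial Hsp70, 0.05. Dnajc15 had 0.41 and Dnaja3 −0.28. Hspb8, which works with Bag3 in muscle and other tissues, read 332, 371 and 435 on the saline arrays, 293, 263 and 274 on the OVA arrays and 401, 412 and 318 on the agonist arrays, lower in OVA than in saline and agonist-treated lung without overlap (log2 change −0.45 and 0.44; limma adjusted p = 0.0819 and 0.112). Bag3 itself had −0.39 (adjusted p = 0.0867). Hspb2 had −0.19, and Hspb11, which despite its symbol is a protein of intraflagellar transport, lay near the detection limit.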

How the data were processed

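Total RNA of mouse lung was read in 9 samples, 1 array each. The authors deposited linear intensities, which fall below 0 for some probe sets. Their software and background subtraction are not stated in these sources. Each array was multiplied by a factor (0.741 to 1.29) to a common 2% trimmed mean, values under the 20th percentile (3.10) were raised to it, and log2 was taken. Control probe sets (66) were left out, and probe sets above the 40th percentile (44.7) on fewer than 3 arrays were not tested. Groups were compared with limma 3.58.1 (R 4.3.3) in 1 fit of 9 arrays (residual degrees of freedom 6, prior 1.69), two-sided, adjusted by Benjamini-Hochberg over 7920 probe sets at 0.05, and the procedure was tested on simulated data.

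Gene names are those of the array's probe annotation. Members and lists were chosen with earlier results of these data known. Named genes were, per comparison, the called members with groups that did not overlap, up to 4 genes of each role with the largest change, the brightest gene of each role and Hspa5, Calr, Canx, Hspa8, Hspd1, Hspa1a and Hspa1b, with up to 4 genes of each wider list. Genes outside the rule (such as Dnaja1, Dnajc3 and Psma2, and genes given with a log2 change alone) were named after their values were seen. The fit was repeated after quantile normalization or equal medians, with the floor removed or set to the 40th percentile, with the filter removed or set to the 60th, with limma's trend and robust options, with replicate number as a block, on only the 6 arrays compared, without each array in turn (for groups that do not overlap, without agonist replicate 3, added after seeing the data) and on gene means over probe sets. Upstream sequences are RefSeq's, matched by gene ID. Protein sequences were not analysed here.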

Additional observations from a re-analysis of the deposited data

How the results depend on the processing

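The number of the 105 probe sets called between OVA and saline, 5 in the fit reported, was 9 of 87 with a filter at the 60th percentile, 8 with an intensity trend and robust prior, 2 with only the 6 arrays compared (Cct2 and Dnajb3), 0 with the replicate block, and 0 to 5 with an array left out (3 without OVA replicate 3, 2 without agonist replicate 2, 0 without any saline array or OVA replicate 1 or 2). Between agonist and OVA, 3 became 0 with the replicate block and 0 with only 6 arrays, and 0 to 2 with an array left out (2 without agonist replicate 3, 1 without saline replicate 3 or OVA replicate 3, 0 without any other). Between agonist and saline, 0 became 1 without saline replicate 2 (Dnajb4) and 1 without agonist replicate 2 (Hspa1b), 0 to 1 over the arrays left out. With the replicate number as a block the 8 calls of members had adjusted p between 0.0715 and 0.116. Deviations of same-numbered arrays of different groups correlated at −0.14 to 0.17 over 9 pairs, and of differently numbered ones at −0.15 to 0.15 over 18. Between saline and OVA alone the same-numbered values were 0.17, 0.11 and 0.035 and the others −0.15 to 0.044. These weak correlations do not settle whether the numbers pair arrays. The labels give the numbers only, so they are not taken as pairs. Over all 7920 probe sets the calls between OVA and saline (752) were 50 with the block and 104 to 857 with an array left out. Those between agonist and OVA (218) were 14 with the block, 18 with only 6 arrays, 361 with a floor at the 40th percentile, 445 of 5385 with the 60th-percentile filter, 453 with the trend and 12 to 517 with an array left out.

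The 20S median from saline to OVA (0.22) was 0.29 within replicate number 1 and 0.19 to 0.27 with an array left out. From OVA to agonist it was −0.33 within number 1, and from saline to agonist 0.14 within number 3. The 19S median from saline to OVA (0.10) was 0.12 with quantile normalization, 0.13 with equal medians, 0.15 within number 2 and 0.055 to 0.14 with an array left out. From OVA to agonist it was −0.0047 within number 3 and −0.10 to 0.0086 with an array left out, and from saline to agonist −0.0096 within number 1, so the 19S direction in both agonist comparisons is not settled. The cytosolic median from saline to OVA (−0.23) was −0.13 within number 3 and −0.29 to −0.15 (without saline replicate 3) with an array left out. From OVA to agonist it was −0.13 within number 3, against 0.06, and from saline to agonist −0.21 within number 3 and −0.16 to 0.013 (without agonist replicate 3) with an array left out. The ER median from saline to OVA (0.48) was 0.13 within number 2 and 0.22 within number 3, and from saline to agonist −0.19 within number 1. The cause of these shifts was not tested. With 3 arrays a group, the number of arrays limits the precision.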
